A study of Drosophila melanogaster with 9 samples.

Results

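Neuroblasts, the neural stem cells of Drosophila, express a series of transcription factors one after the other as they age, and each factor gives the neurons and glia born in its window their identity. In the embryonic ventral nerve cord (VNC) the series runs from Hunchback (Hb) to Krüppel (Kr), the POU factors Nubbin and Pdm2 (together called Pdm), Castor (Cas) and Grainy head (Grh), while Seven-up (Svp) acts as a switch between windows and the Sox factor Dichaete (D) is expressed in neuroblasts beside the series. Hb and Kr, like the other early factors, can also persist in neurons born in their windows, and Cas, Grh, Svp and D are used again by larval progenitors.

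The 8 genes that encode these factors (hb, Kr, pdm2, nub, cas, grh, svp and D) were taken by symbol from a table of 15340 genes, in which each had 1 row. All 8 had enough reads to be tested in every comparison. RNA came from VNCs of late wandering third-instar larvae in which nab-GAL4, active in neuroblasts, drove UAS-prosperoRNAi and UAS-dicer2, so that cells that would become neurons revert to dividing neuroblast-like cells and form tumors. The tumors carrying UAS-chinmoFL as well (nab>prosRNAi, chinmo, below chinmo-overexpressing tumors) and those carrying UAS-chinmoRNAi as well (nab>prosRNAi, chinmoRNAi, below chinmoRNAi tumors) were compared with those carrying neither (nab>prosRNAi, below prosRNAi tumors) and with each other, with 3 libraries of each genotype. Larvae spent 7 days at 18°C and 3 days at 29°C, and each library pooled 51 to 82 dissected VNCs, which also hold cells outside the tumors. Every group carries the prospero knockdown, so no normal VNC stands among the groups. The comparisons ask how the expression of the embryonic series differs with the level of Chinmo, a transcription factor of early larval neuroblasts.

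Reads on genes numbered 34712815 to 40518948 per chinmo-overexpressing library, 30677075 to 39335800 per chinmoRNAi library and 35575053 to 43415151 per prosRNAi library. Normalized counts of chinmo were 71836, 89792 and 81295 in chinmo-overexpressing, 5427, 6330 and 4518 in chinmoRNAi and 8190, 8533 and 8819 in prosRNAi tumors, each genotype apart from the others, and reads of the transgene and of the endogenous gene were not separated. Those of pros, knocked down in all groups, were 8607 to 10751, 31510 to 42387 and 15859 to 19997 in the same order of genotypes, and no group without the knockdown is at hand to check it. Over prosRNAi tumors the log2 fold change of pros was -0.88 in chinmo-overexpressing and 1.03 in chinmoRNAi tumors (limma adjusted p = 0.00461 and 0.00266). The groups thus differ in pros as well as in chinmo, and the parts of these genes cannot be told apart. The summed normalized count of 8 neuroblast markers was 113418 to 139099, 83643 to 110252 and 132243 to 148127 in that order. Without nerfin-1 and brat, which the authors place in the progeny of neuroblasts, it was 92606 to 110797, 53047 to 66988 and 107629 to 120414. The sum of 8 neuron markers was 24448 to 41059, 69358 to 96657 and 46816 to 60579. The summed neuron markers were thus highest in chinmoRNAi tumors, with no overlap between genotypes. Single neuron markers did not all follow the sum. In chinmoRNAi over prosRNAi tumors futsch and Syx1A had log2 fold changes of 0.31 and 0.04 (limma adjusted p = 0.139 and 0.868). Rbp9 rose both in chinmoRNAi (1.43, limma adjusted p = 0.00123) and in chinmo-overexpressing (1.26, 0.00278) over prosRNAi tumors. No marker of neuroblasts, neurons or glia was at or under 3 reads in any genotype, and the markers of fat body (sum 65300 to 534311 over the libraries), muscle, hemocytes, trachea and discs were also detected. Some of these moved with the genotype. In chinmoRNAi over prosRNAi tumors 5 of 8 hemocyte markers (median log2 fold change 1.27) and 5 of 8 trachea and epidermis markers (0.99) rose. So did 2 of 7 disc genes (0.15), and none of these fell, beside 17.9% of all genes called higher by the test given below. In chinmo-overexpressing over chinmoRNAi tumors 5 of 8, 6 of 8 and 4 of 7 fell and none rose, beside 22.7% called lower. Their medians were -2.21, -1.61 and -0.64 in the same order. Of 8 glia markers 4 rose and 2 fell in the first comparison, and 2 rose and 5 fell in the second. Of 8 fat body markers 1 rose and none fell, and then 1 rose and 3 fell. Of 8 muscle markers none rose, and 1 and then 3 fell. Within the chinmoRNAi genotype, differences between libraries ran along transcript length, with a Spearman correlation over 9950 genes of 0.43 for replicate A, 0.57 for replicate B and -0.68 for replicate C against the mean of the other libraries, against values between -0.08 and 0.08 in the other genotypes. This correlation is across genes, which are not independent replicates.

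The levels of the 8 genes spanned a wide range. They are RNA levels of whole VNCs and do not show which cells hold the RNA or its protein. In stainings of late larval tumors made with another driver, the authors reported no Hb, Kr, Pdm or Svp protein and only occasional Cas. On the scale of normalized count per kilobase of exon, which permits levels of different genes to be set side by side, the 4 factors cas, grh, svp and D stood above the 4 factors hb, Kr, nub and pdm2 in each genotype. In prosRNAi tumors the mean level per kilobase was 3147 ± 174 for cas, 2469 ± 149 for grh, 1788 ± 72.2 for svp and 421 ± 22.7 for D (SD, n = 3), and then 108 ± 9.19 for Kr, 83.4 ± 1.5 for hb, 50.7 ± 4.65 for nub and 22.6 ± 2.42 for pdm2. No neighbours in this order overlapped between libraries. In chinmo-overexpressing tumors the order opened with grh at 2237 ± 143 per kilobase, followed by svp at 1742 ± 143 and cas at 1191 ± 30.8, and the ranges of Kr and hb overlapped. In chinmoRNAi tumors cas came first at 3061 ± 765 per kilobase, grh and svp overlapped, and the ranges of hb and nub and those of nub and pdm2 overlapped. The level of cas exceeded that of 94% of 13721 genes with reads and an annotated length in chinmoRNAi and prosRNAi tumors, against 80.6% in chinmo-overexpressing tumors, whereas pdm2 exceeded 31.5% in chinmo-overexpressing, 41.6% in chinmoRNAi and 35% in prosRNAi tumors.

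**Figure D1:**
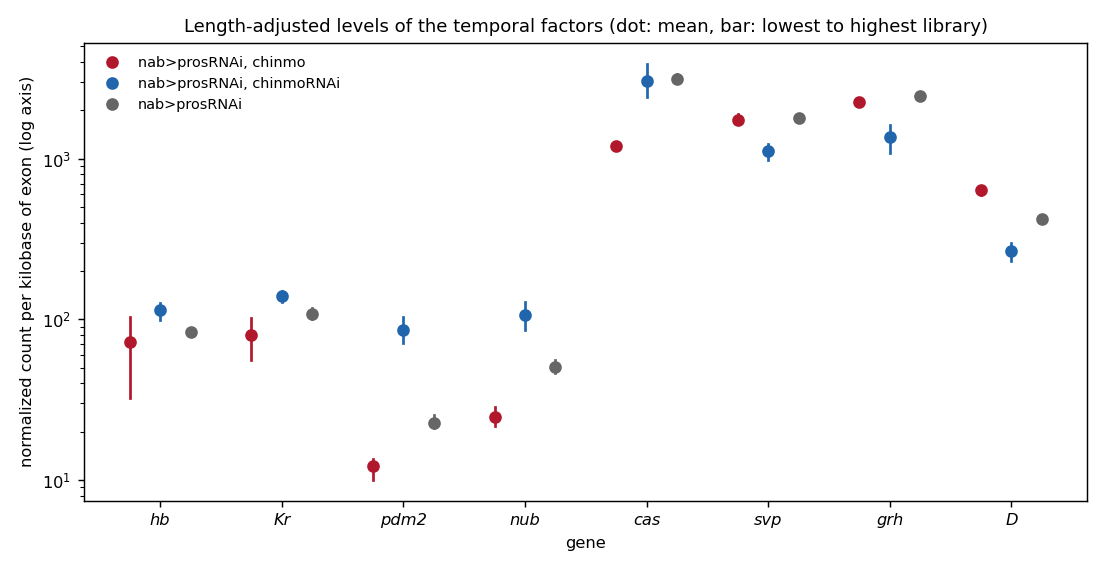
Normalized count per kilobase of exon (vertical log axis) of the 8 genes (horizontal axis) in nab>prosRNAi, chinmo, nab>prosRNAi, chinmoRNAi and nab>prosRNAi tumors; dots are means of 3 libraries and bars run from the lowest to the highest library. The 4 genes cas, svp, grh and D lie above the 4 genes hb, Kr, pdm2 and nub in each genotype, and cas in chinmo-overexpressing tumors (1191) lies below its 3061 in chinmoRNAi and 3147 in prosRNAi tumors.

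In chinmo-overexpressing over prosRNAi tumors, cas, nub and pdm2 fell and D rose, while hb, Kr, grh and svp did not pass the test. These 3 lower and 1 higher calls among 8 genes stand beside 8.26% of 11057 genes called lower and 9.74% called higher in the same limma test, at a Benjamini-Hochberg adjusted p under 0.05. In chinmoRNAi over prosRNAi tumors, pdm2, nub and hb rose and grh, svp and D fell, which is 3 higher and 3 lower of 8 genes, beside 17.9% of 11470 genes called higher and 14.1% called lower. In chinmo-overexpressing over chinmoRNAi tumors, grh, svp and D rose and Kr, pdm2, nub and cas fell, which is 3 higher and 4 lower of 8 genes, beside 19.9% of 11586 genes called higher and 22.7% called lower. The median log2 fold change of the 8 genes was -0.42, 0.15 and -0.82 in these comparisons, against -0.02, 0.05 and -0.03 over all genes tested. Each pair of the 3 comparisons shares a genotype, so their values are not independent. The rises of pdm2, nub and hb in chinmoRNAi tumors went together with those of the neuron, hemocyte and trachea markers given above, whose part in them was not tested. In RNA from whole VNCs, fewer cells of a type and less RNA per cell cannot be told apart. All log2 fold changes below are on the log2(normalized count + 1) scale.

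**Figure D2:**
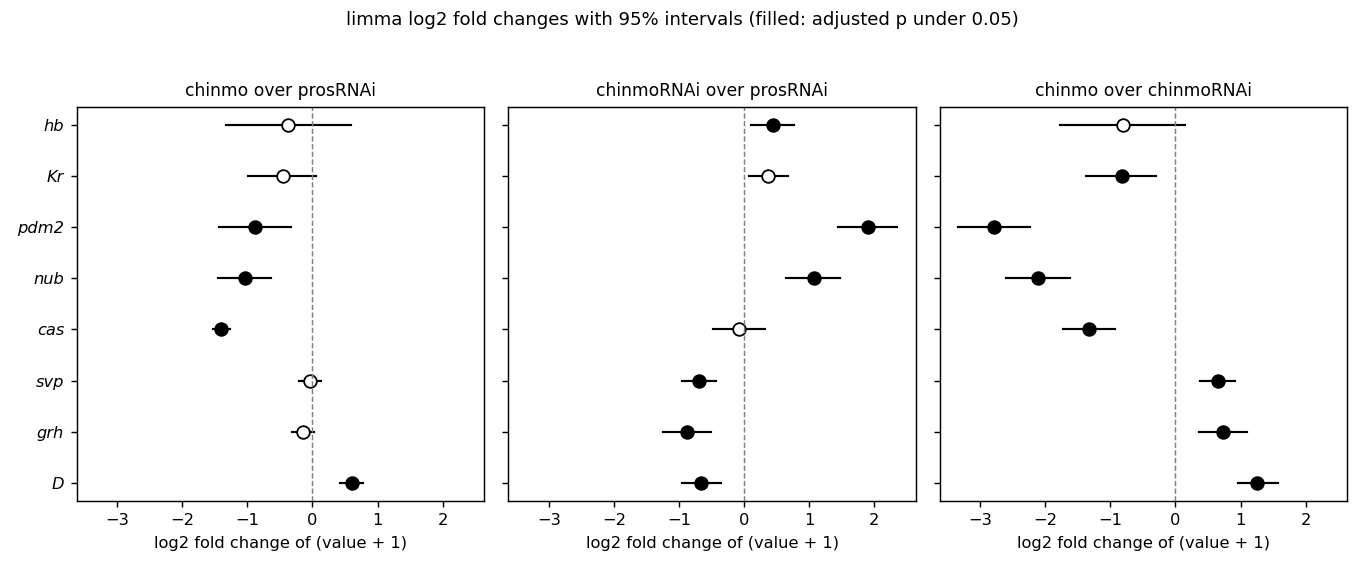
Log2 fold change of the normalized count + 1 (horizontal axis) of each gene (vertical axis) in the 3 comparisons; dots are limma estimates from 3 libraries per genotype, lines are 95% intervals, and filled dots have an adjusted p under 0.05. The pdm2 estimates run from -2.79 in chinmo-overexpressing over chinmoRNAi tumors to 1.91 in chinmoRNAi over prosRNAi tumors, and cas lies at -1.40, -0.07 and -1.33 from left to right.

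The first factor of the series is hb, a zinc finger gene on chromosome arm 3R that opens the embryonic sequence. Normalized counts of hb were 306, 124 and 397 in the chinmo-overexpressing libraries A, B and C, 481, 448 and 379 in the chinmoRNAi libraries and 327, 317 and 316 in the prosRNAi libraries. The prosRNAi libraries lay close together and all chinmoRNAi libraries lay above them, whereas library B of the chinmo-overexpressing tumors was far below libraries A and C. The log2 fold change of hb was 0.44 ± 0.14 (SE) in chinmoRNAi over prosRNAi tumors, with a limma adjusted p of 0.0497. That call was lost in 11 of 20 alternatives, with adjusted p-values between 0.0121 and 0.589. Among them were the fits without chinmoRNAi library A (0.173) or B (0.114) and without prosRNAi library A (0.125), B (0.145) or C (0.0951). In chinmo-overexpressing over prosRNAi tumors the log2 fold change of hb was -0.37 (95% interval -1.33 to 0.59, limma adjusted p = 0.551), and without chinmo-overexpressing library B it was 0.12. In chinmo-overexpressing over chinmoRNAi tumors it was -0.81 (-1.77 to 0.15, limma adjusted p = 0.153), and -0.32 without that library.

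The next gene, Kr, a zinc finger gene on 2R, follows Hb in the embryonic series. Normalized counts of Kr were 365, 449 and 248 in chinmo-overexpressing, 611, 663 and 566 in chinmoRNAi and 443, 461 and 521 in prosRNAi tumors. The chinmoRNAi libraries were the highest with no overlap, and the chinmo-overexpressing and prosRNAi libraries overlapped. In chinmo-overexpressing over chinmoRNAi tumors Kr fell by 0.83 ± 0.23 (SE) on the log2 scale, with a limma adjusted p of 0.0225. This call was lost with quantile normalization (adjusted p = 0.105) and without chinmoRNAi library A (0.0653) or B (0.0691), within a range of 0.00524 to 0.105 over 20 alternatives. Against prosRNAi tumors the log2 fold change was -0.46 (95% interval -0.99 to 0.06) in chinmo-overexpressing and 0.37 (0.07 to 0.67) in chinmoRNAi tumors, with limma adjusted p-values of 0.182 and 0.0649. The second of these passed without chinmoRNAi library C, at an adjusted p of 0.0292.

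The Pdm window is encoded by nub and pdm2, paralogs of the POU family that lie next to each other on 2L in the same orientation and whose annotated exons do not overlap. Normalized counts of pdm2 were 59.9, 63.1 and 46.3 in chinmo-overexpressing, 388, 474 and 328 in chinmoRNAi and 97.4, 98.4 and 117 in prosRNAi tumors. The 3 genotypes did not overlap, and the chinmoRNAi libraries stood far above the others. In chinmoRNAi over prosRNAi tumors pdm2 rose 3.75-fold, a log2 fold change of 1.91 ± 0.19 (SE, limma adjusted p = 0.000721). In chinmo-overexpressing over chinmoRNAi tumors its log2 fold change was -2.79 ± 0.24, a 6.91-fold lower level (limma adjusted p = 0.000262). The smaller change was that in chinmo-overexpressing over prosRNAi tumors, where pdm2 fell by 0.88 ± 0.23 on the log2 scale, with a limma adjusted p of 0.0436. This last call rests on few reads (40 to 63 per chinmo-overexpressing library) and was lost in 11 of 20 alternatives, with adjusted p-values between 0.0139 and 0.186. It was lost without any 1 of the 6 libraries, at adjusted p-values of 0.0804, 0.062 and 0.0801 without chinmo-overexpressing libraries A, B and C and of 0.0991, 0.122 and 0.121 without prosRNAi libraries A, B and C.

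Normalized counts of nub were 149, 125 and 115 in chinmo-overexpressing, 569, 675 and 456 in chinmoRNAi and 263, 245 and 294 in prosRNAi tumors. As for its neighbour, the chinmoRNAi libraries were the highest and the chinmo-overexpressing libraries the lowest, and no genotypes overlapped. The log2 fold change of nub was -1.04 ± 0.17 (SE) in chinmo-overexpressing over prosRNAi tumors, 1.07 ± 0.18 in chinmoRNAi over prosRNAi tumors and -2.11 ± 0.21 in chinmo-overexpressing over chinmoRNAi tumors, with limma adjusted p-values of 0.0103, 0.00405 and 0.000407. The normalized count of pdm2 divided by that of nub was 0.401, 0.504 and 0.404 in chinmo-overexpressing, 0.683, 0.703 and 0.719 in chinmoRNAi and 0.37, 0.402 and 0.399 in prosRNAi tumors. This ratio, a description without a test, was highest in the chinmoRNAi libraries without overlap, and the other genotypes overlapped.

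**Figure D3:**
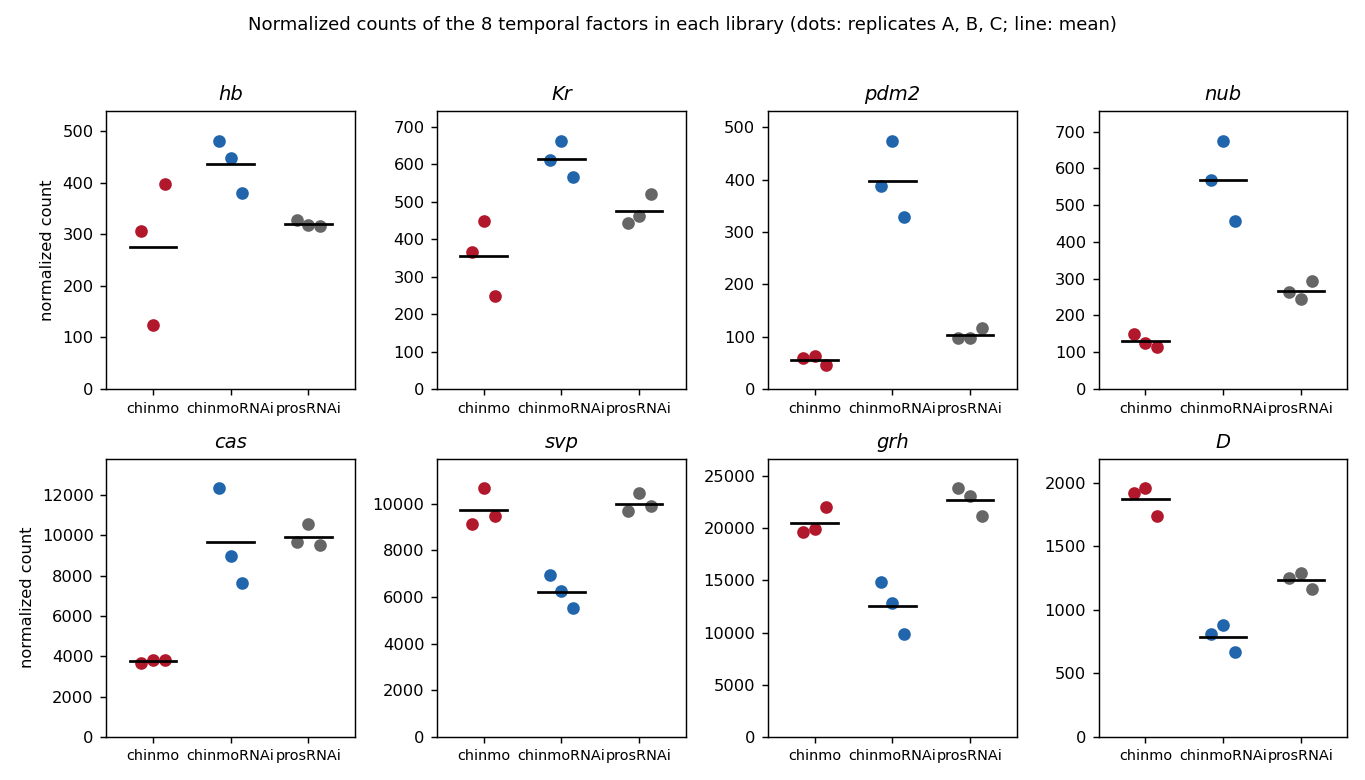
Normalized count (vertical axes, each starting at 0) of each gene in the nab>prosRNAi, chinmo (chinmo), nab>prosRNAi, chinmoRNAi (chinmoRNAi) and nab>prosRNAi (prosRNAi) libraries; dots are replicates A, B and C from left to right and lines are means. The chinmoRNAi libraries are the highest for pdm2 (328 to 474) and nub (456 to 675), the chinmo-overexpressing libraries are the lowest for cas (3641 to 3821) and the highest for D (1740 to 1956).

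The zinc finger gene cas on 3R, which closes the Pdm window and opens the late part of the embryonic series, showed another pattern. Normalized counts of cas were 3641, 3795 and 3821 in chinmo-overexpressing, 12321, 8964 and 7647 in chinmoRNAi and 9661, 10544 and 9541 in prosRNAi tumors. All chinmo-overexpressing libraries lay below all others, while the chinmoRNAi libraries lay on both sides of the prosRNAi libraries. In chinmo-overexpressing over prosRNAi tumors cas fell by 1.40 ± 0.06 (SE) on the log2 scale, a 2.64-fold lower level (limma adjusted p = 8.28e-05). In chinmo-overexpressing over chinmoRNAi tumors the log2 fold change was -1.33 ± 0.17 (limma adjusted p = 0.00104). In chinmoRNAi over prosRNAi tumors it was -0.07, with a 95% interval of -0.47 to 0.33 (limma adjusted p = 0.796). The interval thus holds changes in either direction. Both falls of cas passed in all 20 alternatives run for each.

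The gene svp on 3R encodes a nuclear receptor, the ortholog of mammalian COUP-TF, that ends the Hb window in the embryo and acts again in larval neuroblasts. Normalized counts of svp were 9134, 10654 and 9453 in chinmo-overexpressing, 6921, 6244 and 5512 in chinmoRNAi and 9668, 10452 and 9891 in prosRNAi tumors. The chinmoRNAi libraries were the lowest without overlap, and the other genotypes overlapped. The log2 fold change of svp was -0.69 ± 0.11 (SE) in chinmoRNAi over prosRNAi tumors and 0.65 ± 0.12 in chinmo-overexpressing over chinmoRNAi tumors, with limma adjusted p-values of 0.00355 and 0.00394. It was -0.04 in chinmo-overexpressing over prosRNAi tumors (95% interval -0.21 to 0.13, limma adjusted p = 0.731). An exon of svp overlaps CG44037 on the same strand in a later annotation than that used for counting, so some of its reads may have been left uncounted.

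The gene grh on 2R encodes the CP2 family factor kept by neuroblasts from the late embryo into larval life. Its normalized counts were 19647, 19949 and 22059 in chinmo-overexpressing, 14852, 12794 and 9898 in chinmoRNAi and 23815, 23053 and 21155 in prosRNAi tumors. The chinmoRNAi libraries were the lowest without overlap, and the other genotypes overlapped. In chinmoRNAi over prosRNAi tumors grh fell by 0.88 ± 0.16 (SE) on the log2 scale, and its log2 fold change in chinmo-overexpressing over chinmoRNAi tumors was 0.73 ± 0.16, with limma adjusted p-values of 0.00562 and 0.0085. In chinmo-overexpressing over prosRNAi tumors it was -0.14 (95% interval -0.32 to 0.03, limma adjusted p = 0.212), and this passed as lower when libraries were scaled to the same total (adjusted p = 0.0286) or quantile normalized (0.0216). Its exons span 9185 bases, the most among the 8 genes. With the length trend removed from each library, the log2 fold change of grh was -1.03 in chinmoRNAi over prosRNAi tumors, that of svp was -0.81 and that of D was -0.70, with limma adjusted p-values of 0.000314, 0.000377 and 0.000484. The falls in chinmoRNAi tumors were thus at least as large without the trend.

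The SoxB gene D on 3L was the only one of the 8 genes that rose in chinmo-overexpressing over prosRNAi tumors. Normalized counts of D were 1923, 1956 and 1740 in chinmo-overexpressing, 806, 877 and 671 in chinmoRNAi and 1252, 1294 and 1164 in prosRNAi tumors. No genotypes overlapped, with the chinmo-overexpressing libraries highest and the chinmoRNAi libraries lowest. The log2 fold change of D was 0.60 ± 0.07 (SE) in chinmo-overexpressing over prosRNAi tumors, -0.66 ± 0.13 in chinmoRNAi over prosRNAi tumors and 1.26 ± 0.13 in chinmo-overexpressing over chinmoRNAi tumors, with limma adjusted p-values of 0.00436, 0.00756 and 0.000487. The calls of D passed in all 20 alternatives run for each comparison.

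Whether a gene changed to the same extent between the lower pair of Chinmo levels (chinmoRNAi and prosRNAi) as between the upper pair (prosRNAi and chinmo-overexpressing) was tested in all 9 libraries as the upper change minus the lower change. This difference was negative for 3 of the 8 genes and positive for none, beside 3.28% of 11862 genes called negative and 3.64% called positive. It was -1.47 ± 0.26 (SE) log2 units for cas, -1.02 ± 0.24 for grh and -0.73 ± 0.17 for svp, with limma adjusted p-values of 0.0125, 0.0383 and 0.0386. By the fold changes given above, the larger change of cas lay in the upper pair and those of grh and svp in the lower pair. The pairs were not equal steps of chinmo itself, with a log2 fold change of 3.24 in chinmo-overexpressing and -0.66 in chinmoRNAi over prosRNAi tumors. Where a change lies is therefore not given per unit of chinmo, and equal changes are no neutral reference. The call of cas was lost without prosRNAi library A (adjusted p = 0.0632) or B (0.086). The call of grh was lost in 9 and that of svp in 8 of 22 alternatives, with adjusted p-values up to 0.171 and 0.197. Both were lost without chinmo-overexpressing library A (grh 0.0905, svp 0.096) or C (grh 0.0501, svp 0.0696), chinmoRNAi library B (grh 0.0593, svp 0.0635) and prosRNAi library A (grh 0.167, svp 0.129), B (grh 0.171, svp 0.197) or C (grh 0.0787, svp 0.1), and grh also without chinmo-overexpressing library B (0.0763). For pdm2 the difference was 1.02 (95% interval 0.18 to 1.87, limma adjusted p = 0.144), for nub 0.02 (-0.70 to 0.74), for D -0.07 (-0.51 to 0.38), for Kr -0.09 (-0.88 to 0.69) and for hb 0.07 (-1.32 to 1.46).

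Since the summed neuroblast and neuron markers differed between genotypes, the temporal factors were also set against the marker genes of the same library. The 8 neuroblast markers did not move as 1 group. Of these, 6 fell in chinmoRNAi over prosRNAi tumors, nerfin-1, which is also expressed in young neurons, rose by 1.36 log2 units (limma adjusted p = 0.0015), and brat had a log2 fold change of 0.39 (0.109), with brat at 25933 to 36935 normalized counts in chinmoRNAi tumors. The ratios are therefore given for all 8 and for the other 6, a choice made after the values were seen.

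Per 1000 normalized counts of the 8 neuroblast markers, cas had 27.5 to 33.5 in chinmo-overexpressing, 89.9 to 112 in chinmoRNAi and 65.2 to 72.9 in prosRNAi tumors. Against the 6 markers it had 34.5 to 41, 144 to 184 and 80.2 to 91.4 in the same order. On both scales cas was lowest in chinmo-overexpressing and highest in chinmoRNAi tumors, without overlap. The marker sums were lower in chinmoRNAi than in prosRNAi tumors, so an unchanged gene comes out higher against them. The count of cas itself did not pass the test there (log2 fold change -0.07, limma adjusted p = 0.796). Its higher ratio in chinmoRNAi tumors therefore decides nothing. For pdm2 the values were 0.333 to 0.556, 3.52 to 4.75 and 0.658 to 0.887, and for nub they were 0.823 to 1.2, 5.16 to 6.76 and 1.69 to 2.22, again without overlap, and this held against the 6 markers. For hb they were 1.09 to 2.85, 4.37 to 4.54 and 2.19 to 2.39, and for Kr 1.78 to 3.96, 5.54 to 6.76 and 2.99 to 3.94, with the chinmoRNAi libraries highest without overlap. The lower marker sums of chinmoRNAi tumors raise the ratios of pdm2, nub, hb and Kr as well.

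The genes that fell in chinmoRNAi tumors depended on which markers were used. For grh the values were 158 to 176 in chinmo-overexpressing, 118 to 135 in chinmoRNAi and 159 to 161 in prosRNAi tumors per 1000 counts of the 8 markers, with the chinmoRNAi libraries lowest, but 190 to 215, 187 to 225 and 197 to 200 against the 6 markers, where all genotypes overlapped. For svp they were 68 to 93.9, 62.6 to 65.9 and 65.3 to 74.8 against the 8 markers, and 85.3 to 115, 103 to 110 and 80.3 to 91.9 against the 6 markers, where the chinmoRNAi libraries lay above the prosRNAi libraries. For D they were 12.5 to 17.2, 7.31 to 8.8 and 8.46 to 8.95 against the 8 markers, with chinmo-overexpressing tumors apart and the others overlapping. Against the 6 markers D had 15.7 to 21.1, 12 to 15.5 and 10.4 to 11.2, so chinmo-overexpressing tumors remained highest and the order of chinmoRNAi and prosRNAi tumors was turned round. The lower grh, svp and D of chinmoRNAi tumors was not seen relative to these 6 neuroblast markers. The 6 were the markers that fell there, with log2 fold changes over prosRNAi tumors from -1.12 to -0.81. Genes that fell to a like extent cannot look lower against them, so this outcome follows from the choice of markers and decides nothing.

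Per 1000 normalized counts of the 8 neuron markers, pdm2 had 1.54 to 1.89 in chinmo-overexpressing, 4.73 to 4.91 in chinmoRNAi and 1.94 to 2.1 in prosRNAi tumors. Thus pdm2 stood apart in chinmoRNAi tumors relative to the summed neuron markers too, and so did nub, with 3.04 to 4.68, 6.58 to 7.01 and 4.85 to 5.46. For nub this depends on which markers are summed. Its log2 fold change in chinmoRNAi over prosRNAi tumors (1.07) was below those of fne (1.13) and Rbp9 (1.43). It was above those of the other neuron markers, which ran from 0.04 to 0.75. The order of Kr was turned round, with 10.1 to 10.9 per 1000 neuron marker counts in chinmo-overexpressing, 6.86 to 8.16 in chinmoRNAi and 8.59 to 9.84 in prosRNAi tumors. For hb the values were 3.02 to 16.2, 4.63 to 5.94 and 5.22 to 6.78, so its higher level in chinmoRNAi tumors was seen against neuroblast markers and not against neuron markers. For cas the chinmo-overexpressing (92.4 to 156) and chinmoRNAi (92.7 to 152) libraries overlapped, both below the 158 to 225 of prosRNAi tumors. The part of neuron and neuroblast numbers in these differences was not tested.

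**Figure D4:**
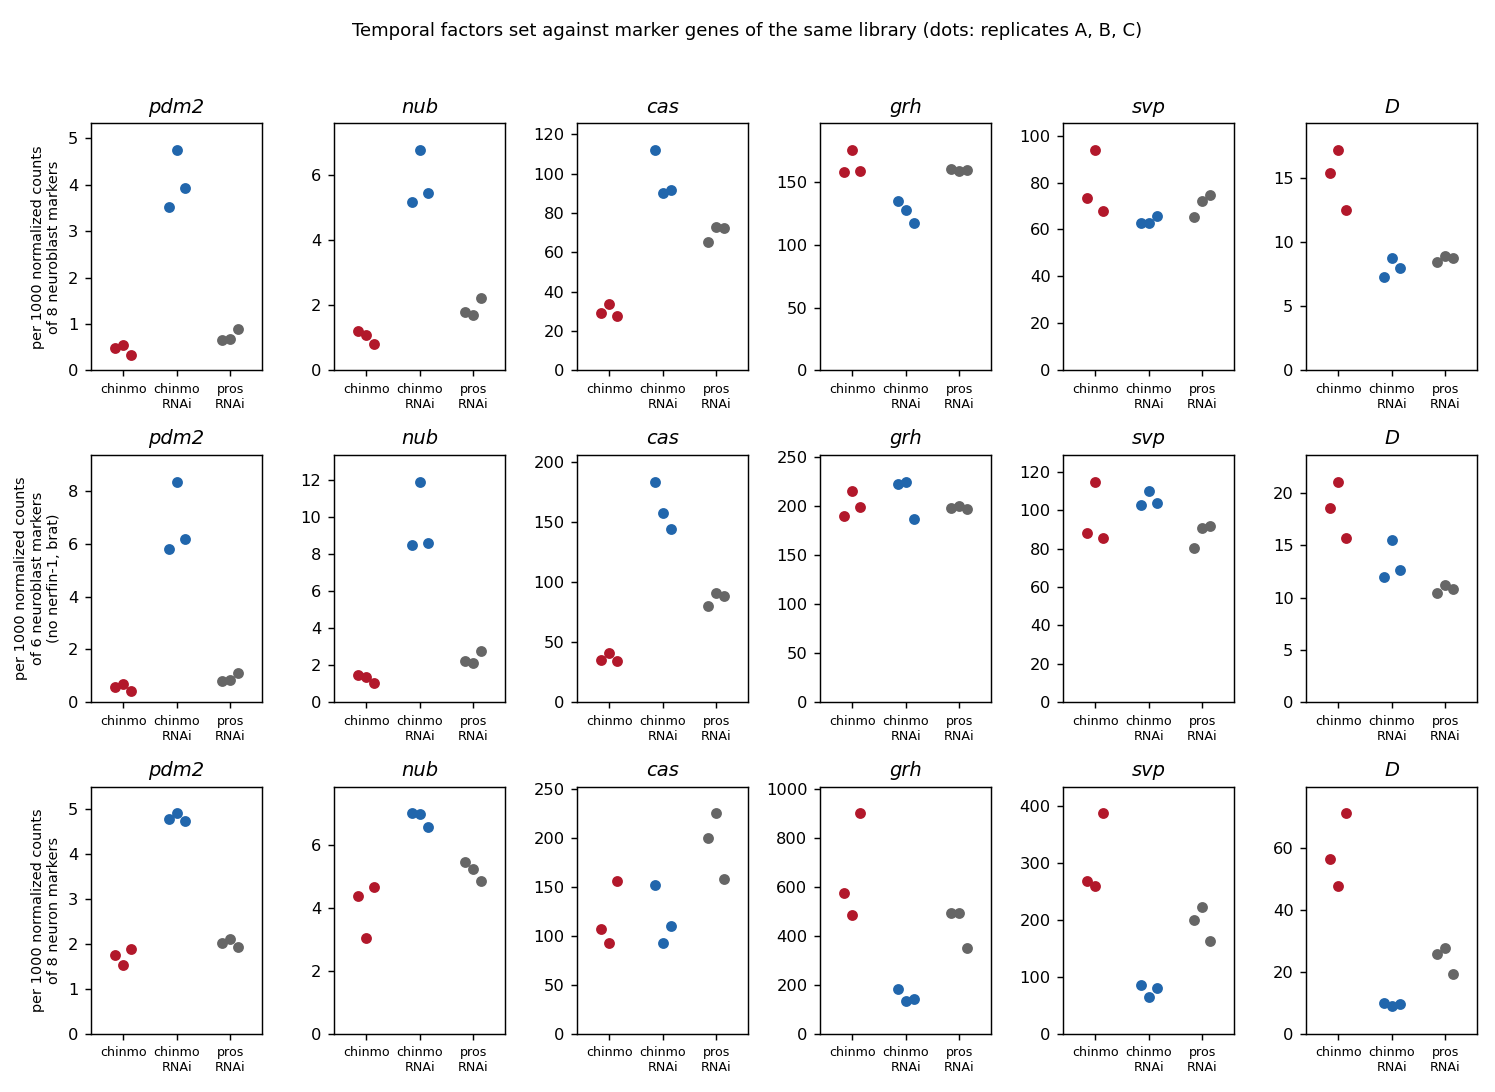
Normalized count of 6 of the genes per 1000 normalized counts of the 8 neuroblast markers (top row), the 6 without nerfin-1 and brat (middle row) or the 8 neuron markers (bottom row) of the same library, on axes that start at 0; dots are replicates A, B and C of the nab>prosRNAi, chinmo (chinmo), nab>prosRNAi, chinmoRNAi (chinmoRNAi) and nab>prosRNAi (prosRNAi) tumors. The chinmoRNAi libraries lie apart for pdm2 and nub in each row, at 3.52 to 4.75 in the top and 4.73 to 4.91 in the bottom row for pdm2, grh overlaps between all genotypes in the middle row (187 to 225 in chinmoRNAi tumors), and cas in the bottom row overlaps between chinmo-overexpressing and chinmoRNAi tumors.

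The list of 8 temporal genes of larval neuroblasts holds chinmo itself and the RNA-binding protein genes Imp, lin-28 and Syp. It also holds the ecdysone-linked genes EcR, br and Eip93F, and mamo, for which neuroblasts and neurons were not told apart. In chinmo-overexpressing over chinmoRNAi tumors 3 of the 8 rose and 3 fell, beside 19.9% and 22.7% of all genes tested, with a median log2 fold change of -0.25. The rise of chinmo, counted here, was set by the transgenes that define the genotypes and is not a result. Normalized counts of lin-28 were 607, 595 and 517 in chinmo-overexpressing, 13, 6.87 and 6.56 in chinmoRNAi and 153, 194 and 193 in prosRNAi tumors, without overlap. Its log2 fold change in chinmo-overexpressing over chinmoRNAi tumors was 5.93 ± 0.32 (SE, limma adjusted p = 8.35e-05), and that of chinmo was 3.91 ± 0.15 (4.99e-05). Eip93F, an ecdysone-response gene of late neuroblasts, had 175, 148 and 258 normalized counts in chinmo-overexpressing, 3853, 3690 and 3088 in chinmoRNAi and 1804, 1776 and 1129 in prosRNAi tumors. The log2 fold change of Eip93F was -4.22 ± 0.21 and that of mamo was -3.88 ± 0.20 in chinmo-overexpressing over chinmoRNAi tumors, with limma adjusted p-values of 7.66e-05 and 7.91e-05. The log2 fold changes of the embryonic factors, from -2.79 to 1.26, lay within the range of this list, from -4.22 to 5.93.

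Of 8 competence factors and lineage targets that act with the embryonic series, 3 rose and 3 fell in chinmo-overexpressing over chinmoRNAi tumors, again beside 19.9% and 22.7% of all genes, and the median log2 fold change was -0.02. The zinc finger gene sqz and its cofactor gene nab, which act downstream of cas in the embryo, had log2 fold changes of 1.04 ± 0.14 and 0.93 ± 0.13 (SE), with limma adjusted p-values of 0.00142 and 0.0017. The driver is a GAL4 insertion in nab that all groups carry, and its effect on the level of nab was not tested. Genes of identified neurons, eve of early-born motor neurons and dimm of peptidergic neurons, had log2 fold changes of -1.79 ± 0.34 and -0.88 ± 0.27 (limma adjusted p = 0.00479 and 0.0354). Their normalized counts were low, at 20.8 to 38 in chinmo-overexpressing and 89.2 to 127 in chinmoRNAi tumors for eve, which did not overlap.

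Of 19 relatives of the 8 factors by DNA-binding family, 18 were tested in chinmo-overexpressing over chinmoRNAi tumors, where 2 rose and 10 fell, beside the same 19.9% and 22.7% of all genes, with a median log2 fold change of -0.84. Hr83, a nuclear receptor gene, had at most 2.85 normalized counts in any library and was not tested. Among Sox genes, SoxN, the other main neural SoxB gene, had log2 fold changes of 0.78 in chinmo-overexpressing over chinmoRNAi tumors and -0.74 in chinmoRNAi over prosRNAi tumors (limma adjusted p = 0.00325 and 0.00485), both in the direction of D. In chinmo-overexpressing over prosRNAi tumors, where D rose, the log2 fold change of SoxN was 0.04 (limma adjusted p = 0.739). Sox21b, which neighbours D on 3L, and Sox21a had log2 fold changes of -0.95 and -2.30 in chinmo-overexpressing over chinmoRNAi tumors (limma adjusted p = 0.0663 and 0.0018). Sox14, an ecdysone-response gene, had 450, 251 and 646 normalized counts in chinmo-overexpressing, 7618, 7777 and 5153 in chinmoRNAi and 844, 1039 and 865 in prosRNAi tumors. Its log2 fold change in chinmo-overexpressing over chinmoRNAi tumors was -4.01 ± 0.34, that of Sox15 was -3.15 ± 0.48 and that of the nuclear receptor gene Hr51 was -2.53 ± 0.25, while that of Sox102F was 2.62 ± 0.14 (SE), with limma adjusted p-values of 0.000262, 0.00203, 0.000445 and 8.94e-05. Normalized counts of Sox15 were low, at 2.21 to 4.75 in chinmo-overexpressing and 29 to 51.5 in chinmoRNAi tumors. The size of its fold change therefore depends on the 1 added to each value. Within the POU family, pdm3 and acj6 had log2 fold changes of -1.89 and -2.22 (limma adjusted p = 0.00121 and 0.00421), and vvl had 0.05 (0.787).

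**Figure D5:**
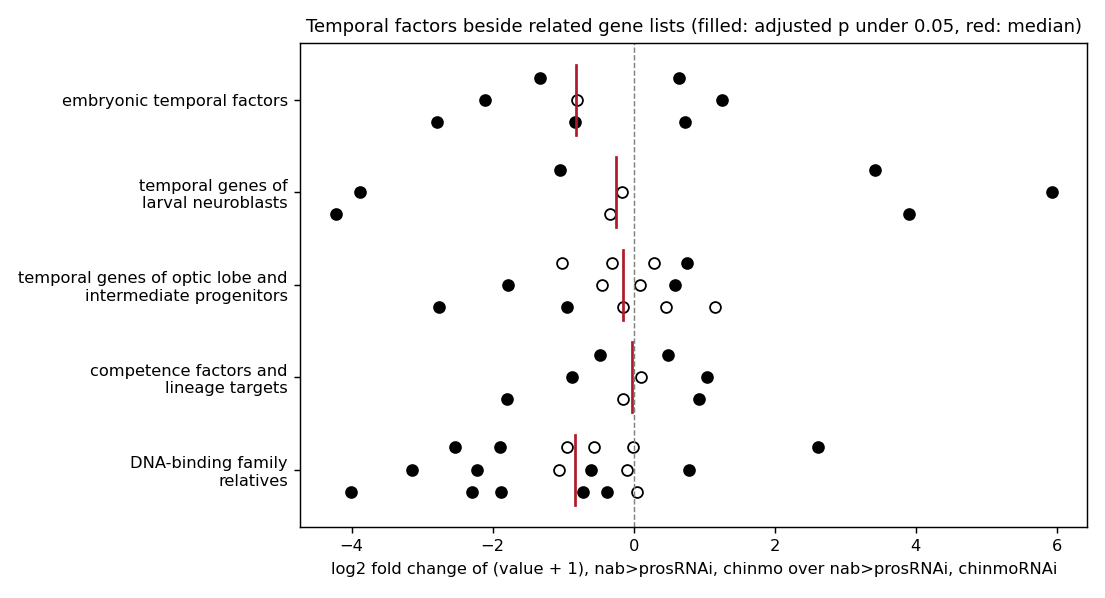
Log2 fold change of the normalized count + 1 in nab>prosRNAi, chinmo over nab>prosRNAi, chinmoRNAi tumors (horizontal axis) for the 8 embryonic temporal factors and 4 lists of related genes (rows); dots are genes, spread vertically to be seen, filled where the limma adjusted p is under 0.05, and red lines are medians. The medians are -0.82 for the embryonic factors, -0.25, -0.15 and -0.02 for the next 3 lists and -0.84 for the family relatives, against -0.03 over all genes tested.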

How the data were processed

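RNA was measured by stranded poly-A RNA-seq in 9 libraries, 3 per genotype, grouped by the treatment in the labels. The authors aligned reads with TopHat2 2.0.9 and Bowtie2 2.1.0 to dm3, counted them on genes with HTSeq 0.5.3p9 and deposited DESeq-normalized counts, a signal in which reads are divided by a size factor of the library. All values (100%, tolerance 0.01 of a read) were whole multiples of 1 read, so reads were recovered. Replicates were biological triplicates of pooled VNCs.

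Differences were tested with limma 3.58.1 (R 4.3.3, lmFit and eBayes with trend) on log2(value + 1), in the 6 libraries of each comparison, on genes with values summing to at least 15, with Benjamini-Hochberg adjustment over all of them and a threshold of 0.05. On the recovered reads, edgeR 4.0.16 with TMM called 1336 higher and 744 lower genes in chinmo-overexpressing over prosRNAi tumors, 1980 and 1735 in chinmoRNAi over prosRNAi tumors, and 2857 and 2276 in chinmo-overexpressing over chinmoRNAi tumors. DESeq2 1.42.0, other scalings, pseudocounts of 0.5 and 10, filters and leaving out each library were alternatives, and figures were drawn with matplotlib 3.10.9. The scripts were tested on simulated counts.

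The replicate letters are shared between genotypes, but correlations of same-letter deviations from genotype means ran from -0.467 to 0.327, so no pairing was modelled. Exon lengths came from a later annotation (release 6), matched by Entrez number for 14940 genes. The temporal factors and the gene lists were chosen with earlier results of these data known. Genes named from a list are up to 4 called in chinmo-overexpressing over chinmoRNAi tumors with the largest changes, and SoxN, Sox21a, Sox21b, pdm3, acj6, vvl and Hr83 were named after their values were seen.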

Additional observations from a re-analysis of the deposited data

How the results depend on the processing

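Over 656 values of single genes under the alternatives, 591 kept their direction and side of the threshold, 45 lost and 3 gained a call, and 17 turned direction. None of the 17 had passed the threshold. In chinmo-overexpressing over prosRNAi tumors they were hb without nab>prosRNAi, chinmo library B (-0.71 to 0.12 over the libraries left out) and svp without library A of that genotype (-0.11 to 0.01) or with the length trend removed (0.05). In chinmoRNAi over prosRNAi tumors they were cas with quantile normalization (0.02) or without chinmoRNAi library C (-0.26 to 0.09 over the libraries left out). In the difference between the pairs of Chinmo levels they were hb (-0.27 to 0.56), Kr (-0.29 to 0.14), nub (-0.11 to 0.17) and D (-0.15 to 0.04) with 1 library left out, and nub with upper quartile scaling or the same total (-0.01). The cause was not tested. The number of the 8 genes called in that difference was 1, against 3, without the mean-variance trend and 1 with a replicate block, and 0 to 3 with 1 library left out. It was 3 in chinmo-overexpressing over prosRNAi tumors with 1 library left out, 5 to 7 in chinmoRNAi over prosRNAi and 6 to 7 in chinmo-overexpressing over chinmoRNAi tumors.

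Pairing by letter was not established, and it was not excluded. Not every library correlated best with its own letter, although 5 optic lobe genes were highest in library B of each genotype. With the replicate block, 2 genes, against 4, were called in chinmo-overexpressing over prosRNAi tumors, where nub (adjusted p = 0.0903 in limma) and pdm2 (0.186) were lost, 5 against 6 in chinmoRNAi over prosRNAi tumors, and 7 against 7 in chinmo-overexpressing over chinmoRNAi tumors. Over all genes the block called 125 higher and 45 lower in the first of these, against 1077 and 913.

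Scaling to the same total moved the median log2 fold change of all genes in chinmo-overexpressing over chinmoRNAi tumors to -0.15, and quantile normalization to 0.11, against -0.03. The same total gave 817 higher and 1621 lower calls in chinmo-overexpressing over prosRNAi tumors, against 1077 and 913, and 1608 and 2964 in chinmo-overexpressing over chinmoRNAi tumors, against 2305 and 2626. Counts of 40 to 63 reads limit pdm2 in chinmo-overexpressing tumors.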

Other observations

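For each of the 8 genes, the 3 genes with the most similar course over the 9 libraries were looked up among 8977 genes averaging 50 or more normalized counts in 1 or more genotypes, by Pearson's r of log2(value + 1). The libraries share their genotypes in sets of 3, so these values describe the libraries and carry no test. The genes most like pdm2 were Klp68D (r = 0.999), a kinesin gene, beat-Ia (0.998), an axon guidance gene, and CG1504 (0.997), and those most like nub were Fili (0.998), CG4829 (0.997) and Sema-2b (0.997), which encodes a secreted guidance cue. Mean normalized counts of beat-Ia were 407 in chinmo-overexpressing, 2482 in chinmoRNAi and 724 in prosRNAi tumors, and those of Sema-2b were 741, 3233 and 1588. Like pdm2 and nub, both were highest in chinmoRNAi tumors. The genes most like Kr were Fmrf (0.992), which encodes neuropeptides, CG15765 (0.991) and CG43955 (0.991). Those most like hb were Wnt2 (0.968), Cpr12A (0.959) and Grasp65 (0.951), the lowest of these values among the 8 genes.

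The genes most like cas were Tsp96F (0.995), Nrt (0.980), a cell adhesion gene, and kni (0.976), which encodes a nuclear receptor of the gap gene class, with mean normalized counts of 224 in chinmo-overexpressing, 532 in chinmoRNAi and 661 in prosRNAi tumors. Those most like grh were sti (0.997), a kinase gene needed for cytokinesis, Sas-4 (0.995), a centriole gene, and klar (0.995). Those most like svp were CG8188 (0.994), CR43469 (0.989) and zwilch (0.988), a kinetochore gene with mean normalized counts of 1428 in chinmoRNAi against 2483 in prosRNAi tumors. Those most like D were r (0.996), a gene of pyrimidine synthesis, CG9104 (0.995) and CG9143 (0.991).

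Among 13 temporal genes of optic lobe neuroblasts and intermediate progenitors, 2 rose and 3 fell in chinmo-overexpressing over chinmoRNAi tumors, shares near the 19.9% and 22.7% of all genes tested, with a median log2 fold change of -0.15. The homeobox gene scro had 33.3, 76.3 and 25.5 normalized counts in chinmo-overexpressing, 169, 392 and 326 in chinmoRNAi and 78.9, 297 and 175 in prosRNAi tumors. The first of these genotypes did not overlap the others, and the log2 fold change of scro in chinmo-overexpressing over chinmoRNAi tumors was -2.76 ± 0.49 (SE, limma adjusted p = 0.00368). Those of ham, B-H1 and slp2 were -1.78 ± 0.40, -0.95 ± 0.32 and 0.76 ± 0.13, with limma adjusted p-values of 0.0105, 0.0473 and 0.00347. Library B was the highest of its genotype in all 3 genotypes for 5 of the 13 genes (scro, ham, tll, hbn and erm), and what the libraries of this letter share was not tested. Against prosRNAi tumors, 5 of the 13 fell and none rose in chinmo-overexpressing tumors, beside 8.26% of all genes called lower, and 4 fell and none rose in chinmoRNAi tumors, beside 14.1%, with medians of -0.61 and -0.39.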
